A study of Rattus norvegicus with 4 samples.

Results

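Keratins are the filament proteins of epithelial cells. On the rat arrays described here they were taken as the non-control probes whose gene name is Krt followed by a number, with or without a letter. This gave 47 genes on 56 probes, out of 15742 named genes on 45598 non-control probes. The cells were NR8383, a macrophage line derived by lung lavage from a normal rat and grown partly attached and partly floating. All 4 samples belonged to 1 group, the submerged control. They had gone through 20 passages, were kept in medium with 15% heat-inactivated serum, 2 mM glutamine, amphotericin B, penicillin and streptomycin, and received no other agent. The labels give 4 h of submerged incubation in one place and 48 h after seeding in another, so no duration is attached to the values. With a single group and a single line, no contrast between conditions exists, and the data answer which keratin transcripts these cells carried and how far they differed between replicates.

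Keratins come in 2 types. A type I (acidic) chain pairs with a type II (basic or neutral) chain, and the pairs assemble into the cytoplasmic filaments that join desmosomes to one another. Which chains a cell makes marks its tissue: Krt8 with Krt18 in simple epithelium, Krt5 with Krt14 in the basal layer of stratified epithelium, Krt1 with Krt10 above it, and a further set in hair and nail. Leukocytes build their cytoplasmic intermediate filaments mainly from vimentin. Krt79, a type II chain, is known in mouse from the hair follicle canal and the sebaceous gland duct, and in mouse its transcript is also listed among the genes of alveolar macrophages.

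The sequences of the probes that carry the keratin signal are given as the deposited array files list them, 5′ to 3′. For Krt79 only the closing 30 bases of the 60-base probe are shown, since they hold the AATAAA letters of a polyadenylation signal, in capitals. The Krt14 and Krt71 probes and the shared Krt33a probe are shown whole as dim keratins detected on every array. The last pair has in capitals the 12 bases that the specific Krt33a probe and the Krt33b probe share.
Krt79 (bases 31 to 60): gcctgtgatgtgtctcAATAAAcagtaact
Krt14: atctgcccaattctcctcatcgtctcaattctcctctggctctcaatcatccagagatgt
Krt71: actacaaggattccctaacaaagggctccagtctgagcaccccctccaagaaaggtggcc
Krt33a, shared probe: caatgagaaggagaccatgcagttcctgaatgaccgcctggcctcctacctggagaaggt
Krt33a, specific probe: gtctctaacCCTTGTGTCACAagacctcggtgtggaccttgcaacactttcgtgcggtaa
Krt33b: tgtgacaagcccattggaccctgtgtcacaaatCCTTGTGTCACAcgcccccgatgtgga

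The Krt79 probe lies on the minus strand at chr7:140632833-140632892 and the Krt14 probe on the minus strand between 89144454 and 89145130 of chromosome 10, in the rn4 coordinates of the files. The shared Krt33a probe lies at chr10:88945565-88945624, the specific one at chr10:88941299-88941358 and the Krt33b probe at chr10:88954496-88954555, all on the minus strand. The Krt71 probe has no position in the files. AATAAA was searched on the probe strand alone. It is present in 5 of the 56 keratin probes, against 9.04% of all 45598 probes, so the letters are not particular to Krt79. The files give no exon or UTR annotation.

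The Krt79 probe was compared with every other probe of the array for shared letters. Its longest run in common with any of the other 45597 probes was 14 bases, and with another keratin probe 8 bases. Only probe letters were compared, so a match of the Krt79 probe to other transcripts was not tested. Among keratin probes of different genes the longest shared runs were 16 bases (Krt25 and Krt27), 15 (Krt26 and Krt32) and 13 (Krt39 and Krt4). One Krt33a probe carries accessions of Krt31, Krt33a and Krt33b in the files and cannot tell these genes apart.

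Across the family, 19 keratin probes lie on rn4 chromosome 7, and every one of them is a type II gene. A further 28 lie on chromosome 10, and every one of these is a type I gene. A Krt18 probe is placed on chromosome 2, and 8 probes have no position. All 33 probes whose strand could be set against the RefSeq gene (assembly GRCr8, strand only) are on the gene's strand. Of the genes, 40 have 1 probe, 5 have 2 and 2 have 3, so most calls rest on a single probe.

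Replicates 1 to 4 had 1317, 1489, 1179 and 958 fluorescence units at the 75th percentile of their processed signals. Levels below are log2 values relative to that percentile, given as mean ± SD over n = 4 arrays. They compare arrays for the same probe, since probes differ in brightness for reasons other than transcript abundance. Detection followed the scanner software's own flag for a spot well above background: a probe counted as detected where more than 0.5 of its usable spots carried that flag. A gene counted as detected if this held for 1 or more of its probes on each of the 4 arrays. The lowest usable spot flagged well above background had 16.7, 18.4, 19.1 and 20.3 units on replicates 1 to 4, a floor under which no usable spot carried the flag.

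Few keratins were detected in these macrophages. On all 4 arrays 7 of the 47 genes were called, against 59.1% of all named genes. These were Krt79, Krt14, Krt33a, Krt33b, Krt71, Krt81 and Krt86. Another 7 genes were detected on 1 to 3 arrays, and 33 genes on none. In terms of probes, 7 of 56 were detected on all 4 arrays, against 42.5% of all probes. Single arrays called 11, 13, 9 and 9 keratin genes on replicates 1 to 4, while they called 10102, 10067, 9664 and 9535 named genes. The weaker flag of the same software, which asks only for a positive and significant signal, passed 21 keratin genes on all 4 arrays, against 69.4% of all named genes.

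Krt79 stood far above its background on every array. Its probe had a median signal of 105953, 133403, 112320 and 100853 units over 10 spots on replicates 1 to 4. The local background around those spots was 47.2, 50.5, 54.2 and 54.5 units, and the uncorrected signal was 2270, 2741, 2130 and 1850 times that background. All 10 spots were well above background on each array, none was saturated, and the spots of an array differed by a coefficient of variation of 4.02% to 5.60%.

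**Figure D1:**
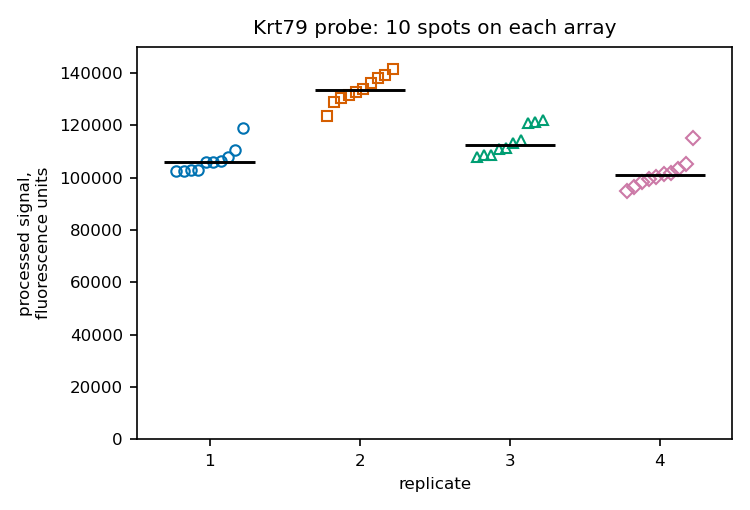
Processed signal of the Krt79 probe in fluorescence units (vertical axis, from 0) at each of its 10 spots on replicates 1 to 4 (horizontal axis), with the median as a bar. The medians are 105953, 133403, 112320 and 100853 units, and replicate 2 lies above the other arrays before scaling.

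The level of Krt79 was 6.34, 6.49, 6.59 and 6.73 on replicates 1 to 4, or 6.54 ± 0.16. The arrays spanned 0.39 on the log2 scale, a range of 1.31-fold. Which array was highest depended on the scaling. Before scaling the lowest Krt79 spot of replicate 2, at 123449 units, lay above the highest of replicate 3, at 122182, whereas replicate 4 was highest relative to the 75th percentile. Scaled to the bright spike-in probes, the levels were 4.47, 4.61, 4.13 and 3.87, with replicate 4 lowest. The spread of Krt79 between replicates did not pass the variance test, in which limma sets each probe's residual variance against that of probes of like signal (adjusted p = 0.985).

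The other 6 keratins detected on all 4 arrays were dim. Each stayed at or below 100 units on every array, as did 18.5% of all detected probes. Their mean levels lay between -5.62 and -3.92.

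**Figure D2:**
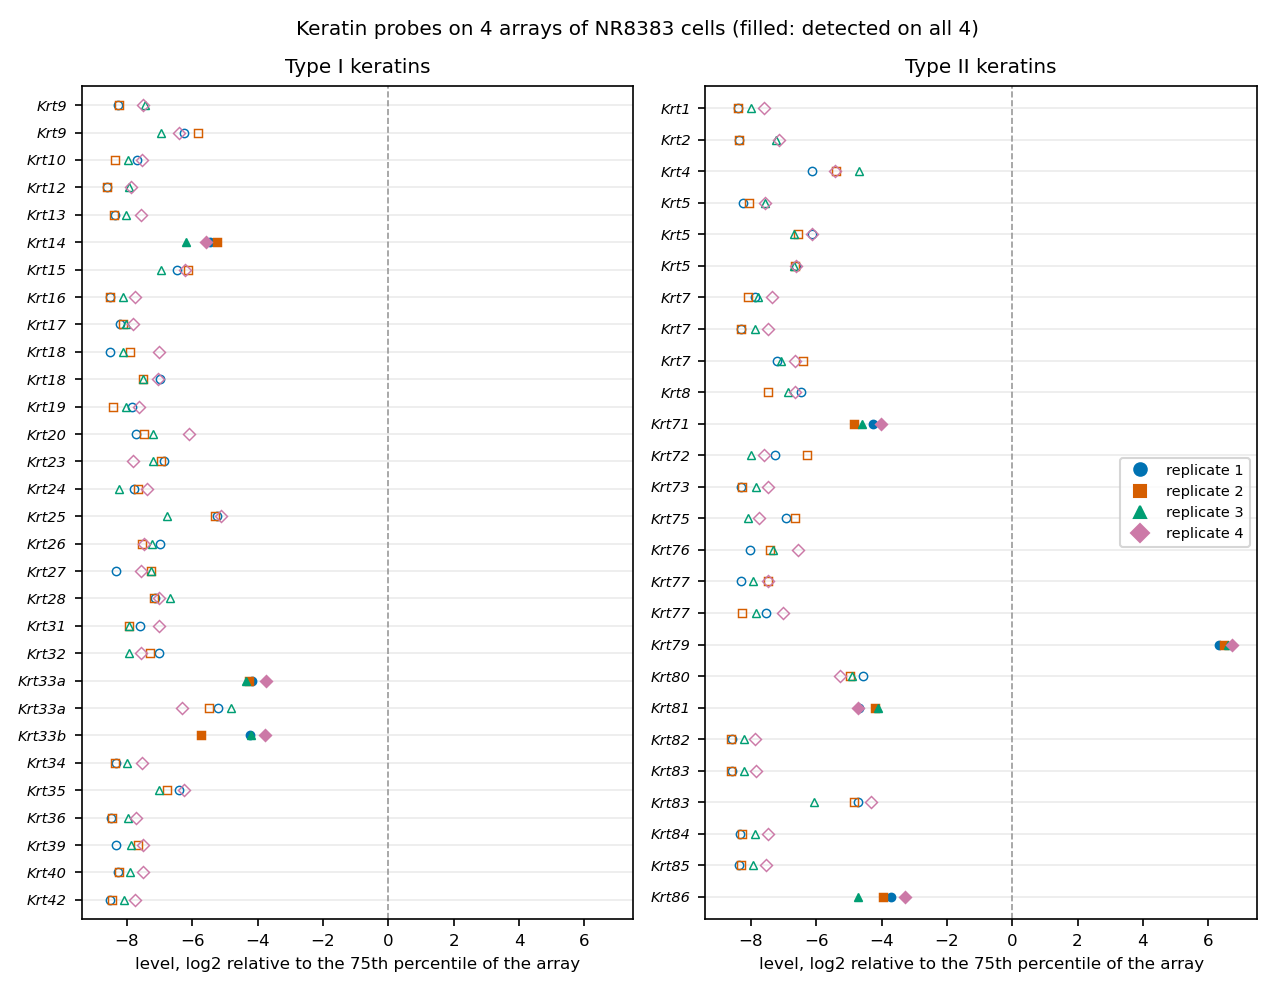
Level of each of the 56 keratin probes (log2 relative to the array's 75th percentile, horizontal axis) on the 4 arrays, type I left and type II right, 1 row per probe. Filled symbols mark the 7 probes detected on all 4 arrays; Krt79 averages 6.54, the other 6 filled rows average -5.62 to -3.92, and rows show the spread between arrays, not an order of abundance.

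Krt14, the type I partner of Krt5 in basal cells, had a median signal of 36.8, 39.3, 21.0 and 25.7 units on replicates 1 to 4. Its probe is printed 10 times, and 8 of 10, 7 of 7, 6 of 10 and 6 of 10 usable spots were well above background. The call on replicates 3 and 4 therefore rested on 6 of 10 spots. Its level was -5.62 ± 0.41, with a range of 1.94-fold.

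Krt71 is a type II keratin of the inner root sheath of the hair follicle. It had 68.1, 52.1, 49.2 and 59.0 units on replicates 1 to 4, all above the floor, and a level of -4.43 ± 0.36.

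The hair keratins gave the remaining calls. Krt81 and Krt86 are type II chains of the hair cortex whose probes are both on chromosome 7. Krt81 had 51.5, 80.5, 68.0 and 36.3 units on replicates 1 to 4 and a level of -4.43 ± 0.31. Krt86 had 99.7, 95.4, 44.8 and 98.2 units, with replicate 3 below the other arrays, and a level of -3.92 ± 0.60 (2.70-fold range). Krt33a and Krt33b are type I hair chains. The shared Krt33a probe had 73.3, 77.7, 57.5 and 71.9 units, a level of -4.13 ± 0.27. The specific Krt33a probe had 35.3, 32.9, 41.6 and 12.1 units and was detected on 3 arrays, so the call for Krt33a on all 4 rested on the probe that also names Krt31 and Krt33b. Krt33b had 69.6, 27.8, 64.3 and 70.7 units, with replicate 2 lowest, and a level of -4.49 ± 0.87 (3.96-fold range). This was the widest spread among the 7 detected keratin probes. Single arrays set several of these ranges on the log2 scale. The range of Krt33b was 1.98 and fell to 0.48 without replicate 2. That of Krt86 was 1.43, or 0.68 without replicate 3. For Krt14 it was 0.96, or 0.36 without replicate 3, and for the shared Krt33a probe 0.62, or 0.19 without replicate 4.

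**Figure D3:**
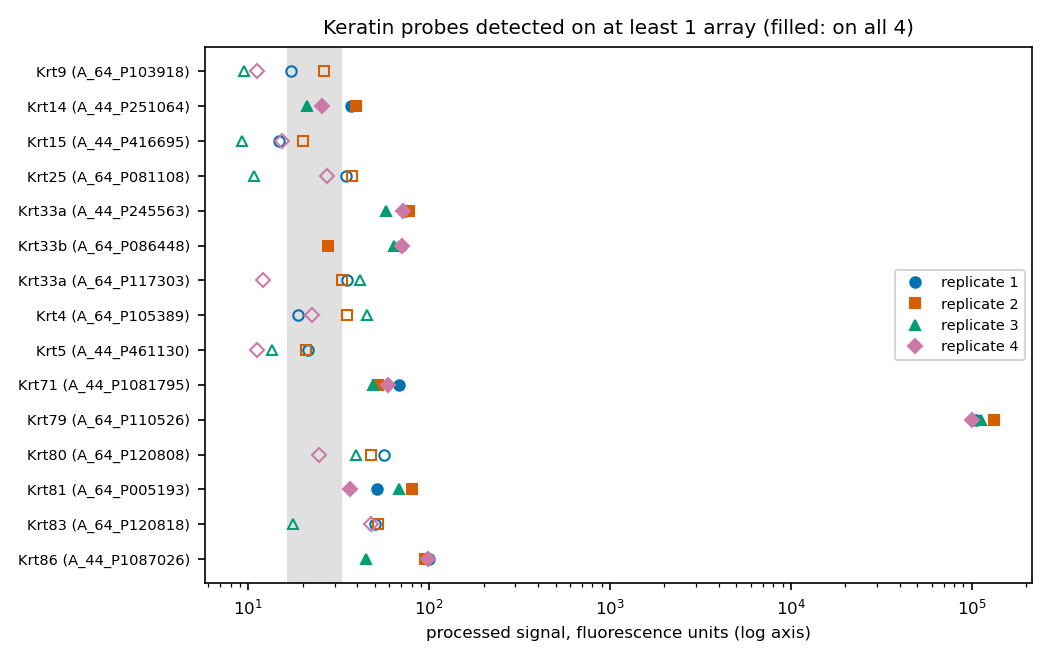
Processed signal in fluorescence units (horizontal, log axis) on the 4 arrays for the 15 keratin probes detected on at least 1 array, filled where detected on all 4. The grey band starts at 16.7 units, the lowest usable spot flagged well above background on any array. It ends at 32.5, the highest of the arrays' 5th percentiles over such spots. Most dim keratins lie in or near the band, and the 4 Krt79 signals lie between 100853 and 133403 units.

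Of the keratins detected on only some arrays, 4 were called on 2 or 3 of them. Krt80, a type II chain of simple and other epithelia, had 56.1, 47.4, 39.3 and 24.7 units on replicates 1 to 4 and was not called on replicate 4. Krt25, a type I chain of the inner root sheath, had 34.7, 37.6, 10.7 and 27.4 units and was not called on replicate 3, the one array far below the rest. Of the probes named Krt83, the one whose accession RefSeq now assigns to Krt87 had 49.9, 52.4, 17.6 and 47.6 units, detected on 3 arrays, while the other was detected on none. A probe named Kb23, which RefSeq lists as a synonym of Krt83, falls outside the naming rule and was detected on all 4 arrays. Krt4, a type II chain of the oesophagus and other moist stratified linings, had 18.9, 35.2, 45.2 and 22.4 units and was called on replicates 2 and 3.

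Krt5, Krt15 and Krt9 were each called on a single array. Krt5, the basal type II chain, is covered by 3 probes, of which 1 had 21.3, 20.8, 13.6 and 11.2 units over 10 spots. On replicate 1, 6 of those 10 spots were well above background and the probe was called. On replicate 2 the count was 5 of 10, on replicate 3 it was 0 and on replicate 4 it was 1. Krt15, a basal type I chain, had 14.8, 20.0, 9.27 and 15.3 units and was called on replicate 2. Krt9, the type I chain of palm and sole skin, had 17.2, 26.2, 9.42 and 11.2 units on its brighter probe and was also called on replicate 2. On the other arrays no probe of these 3 genes had more than 0.5 of its usable spots well above background.

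The chains of simple epithelium were detected on no array, apart from Krt80 on 3 arrays. Krt8 had 14.8, 8.28, 10.1 and 9.62 units on replicates 1 to 4, below the floor of every array. Krt18, its type I partner, had 10.7, 8.69, 6.45 and 7.06 units on the probe with 10 spots, of which 0 were well above background on any array. Krt7, a type II chain of ducts and lung epithelium, stayed at or below 17.7 units on its 3 probes. Krt19, the smallest type I chain, had 5.78, 4.30, 4.53 and 4.85 units. Krt20, a type I chain of intestine and urothelium, had 6.17, 8.34, 7.99 and 14.0 units. By the weaker flag 5 of the 7 simple-epithelial genes were positive and significant on all 4 arrays, against 69.4% of all named genes. The 5 were Krt7, Krt8, Krt18, Krt20 and Krt80. Apart from Krt80 on replicates 1 to 3, none of the 5 was well above background on any array, which is not the same as absent.

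The panel chains of differentiating and injured epidermis were detected on no array. Krt1 had 3.90, 4.41, 4.61 and 4.97 units on replicates 1 to 4, and Krt10, its partner, had 6.95, 4.50, 4.69 and 5.13. Krt16, a type I chain induced in wounded skin, had 3.62, 4.05, 4.26 and 4.48 units. Krt17, another such chain, had 4.06, 4.93, 4.00 and 4.15 units, and 0 of its spots were well above background. Neither Krt1, Krt10, Krt16 nor Krt17 was positive and significant on any array. Krt6a has no probe under that name.

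Grouped by the tissue each chain is best known for, 0 of 7 simple-epithelial and 1 of 3 basal keratins were detected on all 4 arrays. So were 1 of 13 suprabasal or barrier, 1 of 7 inner root sheath and 4 of 16 hair and nail keratins, against 59.1% of all named genes. Krt79 is the member among the suprabasal or barrier keratins. Beside those already named, the genes detected on no array were Krt2, Krt12, Krt13, Krt24, Krt76 and Krt77 of barrier epithelia, Krt23 of simple epithelia, Krt26, Krt27, Krt28, Krt72 and Krt73 of the inner root sheath, Krt31, Krt32, Krt34, Krt35, Krt36, Krt39, Krt40, Krt75, Krt82, Krt84 and Krt85 of hair and nail, and Krt42. By type, 3 of 27 type I and 4 of 20 type II genes were detected on all 4 arrays, against the same 59.1%. The highest signal of any type I probe under a Krt name was the 77.7 units of the shared Krt33a probe. The 41 probes detected on no array had signals between 3.38 and 19.2 units, with a median of 5.06.

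Krt79 was not accompanied by its neighbours in the type II cluster on chromosome 7. The Krt4 probe, 10.2 kb away on rn4, was detected on 2 arrays. On the other side, a probe whose description in the files names Krt78, 16.2 kb away and outside the naming rule, was detected on none, and Krt8, 84.1 kb away, was also detected on none. Of the other keratin probes in the stretch examined, those of Krt81 and Krt86, 425 and 404 kb away, were detected on all 4 arrays. So was that of Kb23, a keratin outside the naming rule 398 kb away.

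**Figure D4:**
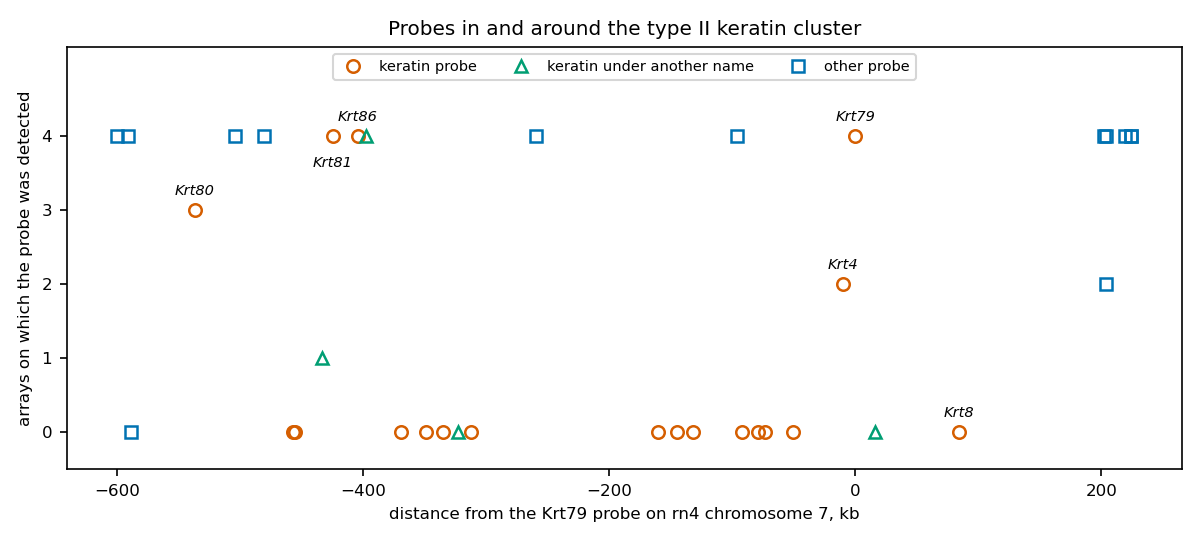
Number of arrays on which each probe was detected (vertical axis, 0 to 4) against its distance from the Krt79 probe in kb on rn4 chromosome 7 (horizontal axis), for keratin probes (circles), keratins under another name (triangles) and other probes (squares). Krt79, Krt81 and Krt86 are the circles at 4, with the triangle of Kb23 beside them, and the circle nearest to Krt79, Krt4, is at 2.

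Levels of the detected keratin probes varied more between arrays than those of the typical detected probe. The median SD of the 7 detected keratin probes was 0.36, or 0.38 without Krt79, against 0.13 over all 19400 detected probes. Over the 3595 detected probes that, like 6 of the 7 keratins, stayed at or below 100 units on every array, the median SD was 0.23. With no filter on dim probes, it was 0.38 over keratin probes and 0.35 over all probes. Dimness accompanied the wider spread, and its part in the difference was not tested. All the dim keratin probes but that of Krt14 have 1 spot per array, so noise between spots cannot be told from differences between samples. The 10 spots of Krt14 differed within an array by a coefficient of variation of 15.6% to 52.2%, over usable spots. None of the 7 keratin probes passed the limma variance test at an adjusted p under 0.05, against 0.17% of all detected probes. At an unadjusted p under 0.05 there were 2 of 7, Krt33b and Krt86, against 6.5% of all detected probes. Krt33b had an unadjusted p of 0.0039 and an adjusted p of 0.243 in limma. For Krt86 the unadjusted p was 0.013 and the adjusted p 0.427 in limma. Both passed (adjusted p = 0.000471 and 0.0193 in limma) when probes below background were left in the fit, where 2 of 56 keratin probes and 1121 of 45588 probes in all passed. The labels do not say how cultures were separated beyond calling the samples biological replicates. These p-values set the spread between these samples, spot noise included, against that of probes of like signal.

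Where a keratin probe was detected on at least 1 array, replicate 3 was most often the lowest array. This held for 8 of 15 such keratin probes, and replicates 1, 2 and 4 were lowest for 2, 2 and 3. Over all 23568 probes detected on at least 1 array, replicate 3 was lowest for 28.9%. The detected keratin probes also had a median G and C content of 55%, against 45% in undetected keratin probes and 43.3% over the array. Among all detected probes at or below 100 units the median was 45%, and among all probes detected on no array it was 41.7%. The part of base composition in the keratin calls was not tested.

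The labelled cell type was checked against its markers, and epithelial and mesothelial markers were read beside it, since lavage can carry such cells. All 8 macrophage markers were detected on all 4 arrays, with Cd68 at 4.74 ± 0.05 and the lysozyme gene Lyz2 at 6.67 ± 0.06. Itgam had the widest spread of the 8, at -0.90 ± 0.74, and Csf1r was detected on 1 of its 2 probes. The summed macrophage level was 7.70, 7.71, 7.76 and 7.73 on replicates 1 to 4. Of 12 lung epithelial markers, 2 were detected on all 4 arrays, the receptor gene Ager (-4.38 ± 0.12) and the ciliogenesis factor Foxj1 (-3.14 ± 0.17, on 1 of its 2 probes), and 3 on some arrays. Those on some arrays were Sftpa1 and Scgb1a1, on 2 arrays each, and Sftpc on 1. Epcam, Cdh1, Cldn4, Cldn18, Sftpb, Aqp5 and Muc1 were detected on none. The summed epithelial level was -2.05, -2.26, -2.07 and -1.97. Of 4 mesothelial markers, the calcium binder Calb2 (-4.63 ± 0.36) was detected on all 4 arrays, Lrrn4 on 3, and Msln and Wt1 on none, with a summed level of -3.62, -3.73, -3.76 and -3.45. Fewer cells of a type and less RNA per cell cannot be told apart in such bulk samples.

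Genes that work with keratins were read from lists of their relatives, linkers, regulators and products. Of 16 other intermediate filament genes, 4 were detected on all 4 arrays, Gfap on 1 and 11 on none. The 4 were vimentin, Vim (4.94 ± 0.07), and the nuclear lamins Lmna (4.59 ± 0.14), Lmnb1 (0.12 ± 0.30) and Lmnb2 (-0.08 ± 0.09). Vim was thus the only cytoplasmic filament gene of that list detected on every array.

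Of 19 genes for plakins, which tie filaments to other structures, and for desmosomes, 8 were detected on all 4 arrays, 1 on some and 10 on none. Plec, which encodes plectin, was at 2.82 ± 0.20. Dsp and Jup, which encode desmoplakin and plakoglobin, the proteins that anchor keratins at desmosomes, were detected on none. Among the desmosomal cadherins, which are named after their values were seen, Dsg2 (0.36 ± 0.08), Dsg3 (-2.23 ± 0.25) and Dsc2 (-3.06 ± 0.24, on 1 of its 2 probes) were detected on all 4 arrays, and Dsg1, Dsg4, Dsc1 and Dsc3 on none.

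Of 16 partners and modifiers of keratins, 12 were detected on all 4 arrays and 4 on none. The adaptor genes Ywhaz (1.36 ± 0.12) and Ywhae (4.74 ± 0.07) of the 14-3-3 family were detected, and Sfn, the family member of keratinocytes, was not. The kinase gene Prkce and also Trim29 and Kctd1 were the others detected on none. Of 14 cornified envelope genes, 5 were detected on all 4 arrays, 5 on some and 4 on none. Those detected on all 4 arrays, named after their values were seen, were Tgm1 (0.11 ± 0.13), Tchh (-0.99 ± 0.20), Lce1f (-2.64 ± 0.32, on 1 of its 2 probes), Spink5 (-3.60 ± 0.17, on 3 of its 4 probes) and Sprr1a (-4.41 ± 0.24). Ivl (involucrin), Sprr3, Casp14 and Klk7 were those detected on none, Lor (loricrin) was detected on 2 arrays and Flg (filaggrin) on 1. Of 11 epithelial regulators, 3 were detected on all 4 arrays, Elf3 (-4.58 ± 0.39), Ovol2 (-4.81 ± 0.23) and Klf4 (-2.08 ± 0.07), 3 on some, and 5 on none, among them Grhl2 and Esrp1.

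**Figure D5:**
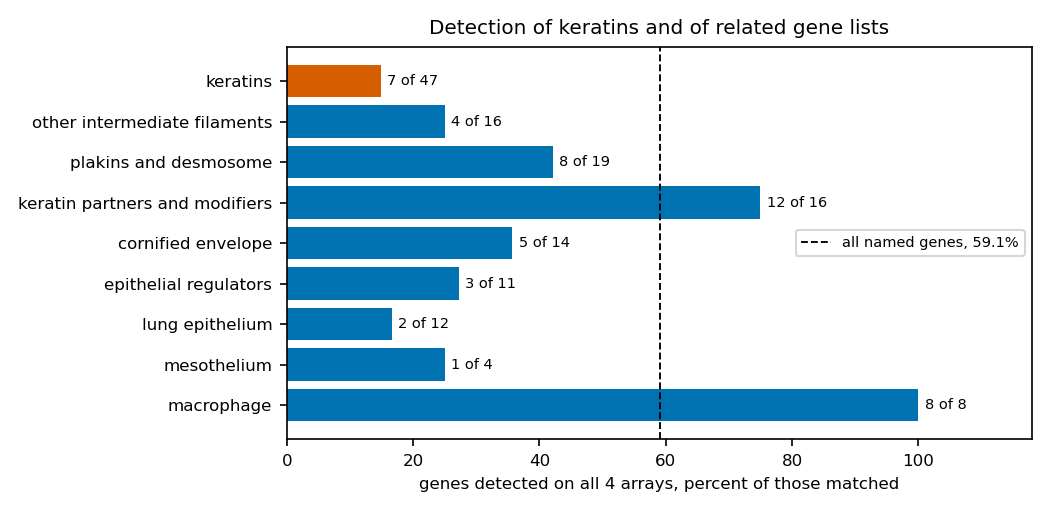
Percent of matched genes detected on all 4 arrays (horizontal axis, from 0) for keratins and for the 8 lists read beside them, with counts at the bars and the share of all named genes, 59.1%, as a dashed line. Keratins, at 7 of 47, have the lowest share shown, and macrophage markers, at 8 of 8, the highest.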

How the data were processed

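Expression of 4 submerged NR8383 cultures was measured on one-colour Agilent rat arrays from 100 ng of RNA with an integrity number above 7.5, per the labels' protocols. The deposited values are fluorescence intensity per spot on a linear scale, background-subtracted and flagged for detection and outliers by Agilent Feature Extraction 11.0.1.1, per the file headers and the submitters' processing notes. The authors' files are not normalized between arrays. The arrays shared 1 slide and 1 scan, so no batch could be tested, and the number of arrays limits precision. The well-above-background flag asks for 13 background SDs, per the file headers.

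Spots marked by the software as uneven or outlying were dropped, which removed 10 of 516 keratin spots. From the log2 of each processed signal the array's 75th percentile was subtracted, and a probe's spots were averaged. Signals in units are medians over spots. A gene with several probes outside the keratins is given by the brightest one, detected probes taking precedence. The variance test used limma 3.58.1 (R 4.3.3) over all 19400 detected probes (trended, robust prior, Benjamini-Hochberg, 0.05) and was tested on simulated data. Tables were made in Python 3.11.15 with pandas 2.3.3 and numpy 2.4.6, and plots with matplotlib 3.10.9.

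Gene names are the array's, and 49 keratin probes matched a RefSeq accession of GRCr8. Coordinates are the files', on rn4. The members and the 8 lists, of which 100 of 105 genes were matched, were chosen with earlier results of these data known. The text names every keratin detected on any array, a panel of epithelial keratins whatever their result, any keratin past the variance test, the other keratins by name only, and from the filament, linker, partner, envelope and regulator lists the first 3 genes and the members called or not called where 4 or fewer. Alternatives were another flag, fewer arrays or every probe required, other names, flagged spots kept, other background correction (normexp, offset 50), quantile, median and spike-in scaling, no filter on dim probes, other priors, a threshold of 0.01 and each replicate left out.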

Additional observations from a re-analysis of the deposited data

Results flagged for a closer look

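One keratin result stood out among the 17 examined for an array far from the others. The Krt25 probe, for a type I chain of the inner root sheath, had levels of -5.25, -5.31, -6.78 and -5.13 on replicates 1 to 4, and the gap of replicate 3 to its nearest neighbour was 0.891 of the whole range, above Dixon's critical value for 4 samples. Chance flags about 1 in 20 such groups. The signal of that probe on replicate 3 was 10.7 units, below the 19.1 units of the lowest usable spot flagged well above background there.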

How the results depend on the processing

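Keratin genes called on all 4 arrays numbered 7. The weaker flag gave 21 and a requirement of 2 arrays gave 11. Keratin probes, also 7, became 23 and 12 under those rules. Over all named genes and probes the same rules called 63.4% and 48.1% with 2 arrays enough, and 55.6% of probes with the weaker flag. With every probe of a gene required the count was 6, against 51.3% of named genes. It was 7 with spots kept that the software marks as outliers and 7 with members named by RefSeq accession. The variance test called 2 keratin probes, Krt33b and Krt86, with no filter on dim probes, where 1121 of all 45588 probes passed. It called 0 keratin probes under the other scalings, background correction, priors and thresholds run. Of all 19400 detected probes it called 270 with normexp, 29 with quantile, 50 with median and 1 with spike-in scaling. With either other prior and at the threshold of 0.01 it called 0 of all probes, so the keratin count was fixed at 0 there. Leaving out each replicate gave 7 to 9 genes (59.1% to 60.2% of named genes) and 7 to 9 probes (42.6% to 44.2% of all probes). The median SD was then 0.279 to 0.417, against 0.109 to 0.126 over all detected probes. In these fits 0 keratin probes passed the variance test, where 75, 47, 0 and 52 of all probes passed without replicates 1 to 4. Without replicate 3 the keratin count was therefore fixed at 0. Under the other scalings, background correction and filters the median SD lay between 0.223 (normexp) and 0.630 (spike-in), where that of all detected probes was 0.491 with spike-in scaling. Of 63 ranges of a detected keratin probe over arrays, each under another setting, 55 moved by less than the spread between replicates and 8 by more. A range cannot change when the array left out is neither its highest nor its lowest, so part of the 55 was fixed in advance. With spike-in scaling the range was 0.74 for Krt79, 1.55 for Krt14 and 1.49 for Krt81, and with normexp it was 0.35 for Krt14. No paired analysis was possible because all samples are of 1 group. The genes added by the weaker flag or by fewer arrays are those not well above background on every array.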

Other observations

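Outside the naming rule, 7 probes that RefSeq names or the files' descriptions give to keratin genes carry other names on the array, and 2 of them were detected on all 4 arrays. Kb23, a name that RefSeq lists as a synonym of Krt83, had 168, 175, 124 and 122 units on replicates 1 to 4 and a level of -3.07 ± 0.13. Ka11, a type I keratin gene, had 141, 164, 112 and 113 units and a level of -3.22 ± 0.13. A probe that RefSeq assigns to Krt88 had 25.4, 9.04, 9.79 and 7.64 units and was detected on replicate 1 alone. The probes that RefSeq assigns to Krt6c and Krt90 and those described as Krt78 and Krt222 were detected on none. LOC300249, a gene with no keratin name whose probe lies 96.4 kb from that of Krt79, between those of Krt2 and Krt1, was detected on all 4 arrays at 5.02 ± 0.05.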
